A study of Homo sapiens with 6 samples.

Results

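Transcripts of the urea cycle and of amino acid breakdown were followed in HepG2 cells after silencing of DGUOK, the gene of mitochondrial deoxyguanosine kinase. The 44 genes are a list of enzymes known from liver nitrogen metabolism, matched by symbol to the 34036 genes of the count table. All 44 were rows of that table, 43 had a count in some library, and 36 passed the filter on low counts and were tested.

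HepG2 is an established human line from a hepatocellular carcinoma, grown here in EMEM with serum. Cultures were transfected with a siGENOME pool against DGUOK (siDGk, labelled siDGUOK) or with non-targeting siRNA (siCON, labelled siControl), both in Lipofectamine RNAiMAX. RNA was sequenced 48 h later from 3 independent cultures a group. The labels name poly(A) selection beside an unresolved choice of rRNA depletion, so the kind of library is uncertain. The line is a single tumour line, and the knockdown is transient and incomplete, which limits it as a model of lasting loss. Totals over all genes were 19065684, 18915508 and 10527216 counts in siCON replicates 1, 2 and 3, and 18613138, 15978314 and 21334876 in siDGk replicates 1, 2 and 3. The sample titles separate the groups, whereas the treatment field names siControl for all 6 samples, so DGUOK itself was used to check the titles. DGUOK stood at 54.4, 53.1 and 48.2 CPM (counts scaled to library size) in siCON and at 9.08, 10.5 and 6.72 CPM in siDGk libraries. Every siDGk library thus lay below every siCON library, with a log2 fold change of −2.57 (SE 0.19, edgeR adjusted p = 1.64e-08).

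The urea cycle turns ammonia into urea in the liver cell. CPS1 and OTC work inside mitochondria, where NAGS makes the activator that CPS1 needs, and ASS1, ASL and ARG1 complete the cycle in the cytosol. The other enzymes take apart single amino acids, feed their nitrogen to the cycle, and pass their carbon to the citric acid cycle, ketone bodies or glucose. Many of them are abundant in hepatocytes and scarce in most other tissues, and inherited loss of several causes metabolic disease of childhood.

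Of the 36 genes tested, 14 were called, 11 lower and 3 higher in siDGk than in siCON cells. Calls needed a log2 fold change beyond 0.5 in either direction and an adjusted p below 0.05, from edgeR's quasi-likelihood test with Benjamini-Hochberg adjustment over all 14476 genes tested. Across all of these, 14.1% were called, 6.68% lower and 7.42% higher. Calls among the 36 were more frequent than this background in the lower direction (30.6%) and near it in the higher direction (8.33%). The genes were chosen with earlier results of these data known, so the contrast is a description and no test. The background was also not matched to the 36 for level of counts. The falls were those of HAL, AGXT, PRODH2, SARDH, FTCD, QPRT, AMDHD1, DBT, ASS1, AFMID and CPS1. The rises were those of NAGS, ARG2 and HPD. GLDC and PCCB passed the adjusted p but not the fold change threshold, which brought the number past the adjusted p to 16, against 19.7% of all genes. Log2 fold changes were negative for 29 and positive for 7, with a median of −0.45 beside 0.02 over all genes tested. The 3 siDGk libraries lay all below the 3 siCON libraries for 17 of the 36 and all above them for 7, and the groups overlapped for 12, while 36% of all genes tested did not overlap. The genes tested are those with enough counts, and their median does not describe the 8 that were not tested.

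**Figure D1:**
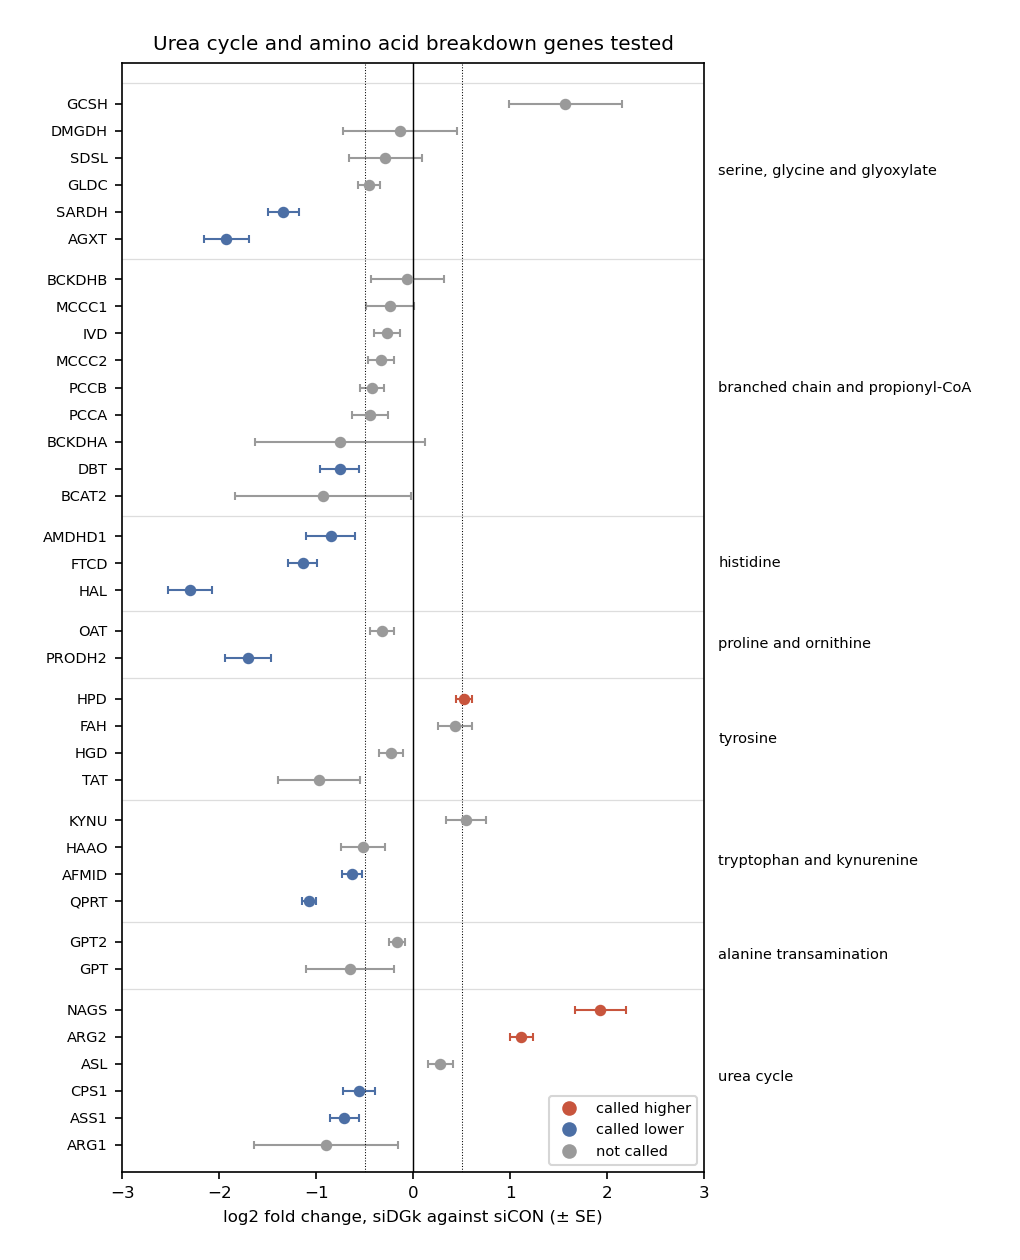
Log2 fold change of each of the 36 genes tested, siDGk against siCON, on the x axis, with genes by role on the y axis; points are edgeR estimates, bars are ± SE (n = 3 a group) and dotted lines mark −0.5 and 0.5. The 3 tested histidine genes sit left of the threshold, and the urea cycle genes spread to both sides, from NAGS at 1.93 to ARG1 at −0.90 with a wide SE of 0.74.

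Among the 6 urea cycle genes tested, NAGS and ARG2 rose, ASS1 and CPS1 fell, and ASL and ARG1 were not called. The share called was 66.7%, beside 14.1% of all genes tested. In groups as small as this and those below, such shares carry little weight. Levels of different genes were compared per exon length, as TPM (scaled to exon length and to the library). In siCON cells they ran from ASS1 at 77.8 ± 8.63 TPM and ARG2 at 69.3 ± 5.51 TPM (SD, n = 3) through ASL at 27.3 ± 1.67 and CPS1 at 12.2 ± 1.56 to NAGS at 7.41 ± 1.87 and ARG1 at 5.46 ± 3.32. ASS1 and ARG2, and NAGS and ARG1, did not differ from each other beyond their spread. With the length of the canonical transcript, chosen as an alternative after seeing the data, ASS1 was at 84.3, ARG2 at 45.6, ASL at 42.4, NAGS at 5.31 and ARG1 at 4.58 TPM. The closeness of ASS1 and ARG2 therefore depends on the length used, and so does the gap between ARG2 and ASL.

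NAGS, the synthase of N-acetylglutamate, lies on chromosome 17 (44004622 to 44009068, GRCh38, plus strand). Its level was 6.04, 4.05 and 6.67 CPM in siCON and 17.9, 25.0 and 20.6 CPM in siDGk libraries. The lowest siDGk library was well above the highest siCON library. The log2 fold change was 1.93 (SE 0.27, edgeR adjusted p = 3.22e-05), a 3.81-fold rise and the largest rise among the genes called. No exon of NAGS was shared with another gene in Gencode 44.

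ARG2, the mitochondrial arginase, lies on chromosome 14 (67619920 to 67651708, plus strand). Libraries gave 47.1, 40.0 and 43.3 CPM in siCON and 96.3, 84.6 and 102 CPM in siDGk. The groups were far apart relative to their spread, with a log2 fold change of 1.12 (SE 0.12, edgeR adjusted p = 2.09e-06). Of its exon length, 39.6% is shared with VTI1B on the opposite strand. Counting ignored strand and left out reads on more than 1 gene, so the count of ARG2 is uncertain. Exon overlaps here and below are those of Gencode 44, and the authors counted with an earlier release, in which they may differ. The 250 bases before its start are shown because ARG2 was the only called gene with a full cAMP response element in the RefSeq promoter window (chr14:67619670-67619919, GRCh38.p14, plus strand, 5′ to 3′), with the matches in capitals.
ARG2: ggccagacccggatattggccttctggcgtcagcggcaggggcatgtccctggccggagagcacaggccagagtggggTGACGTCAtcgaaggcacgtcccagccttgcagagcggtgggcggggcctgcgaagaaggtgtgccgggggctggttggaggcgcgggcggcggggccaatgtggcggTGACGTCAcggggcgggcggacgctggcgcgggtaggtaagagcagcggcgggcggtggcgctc
The motif, TGACGTCA, reads the same on both strands and began 172 and 64 bases before the start. It was present in 1.85% of the 35116 RefSeq windows of the same length, from 250 bases before to 50 after a start. A match describes letters only, and binding was not measured.

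CPS1, which commits ammonia to the cycle by making carbamoyl phosphate, lies on chromosome 2 (210477682 to 210679107, plus strand). It was measured at 42.2, 37.0 and 31.8 CPM in siCON and at 24.3, 26.7 and 24.5 CPM in siDGk libraries. All siDGk libraries lay below the lowest siCON library, by a modest margin. The log2 fold change was −0.56 (SE 0.17, edgeR adjusted p = 0.021). This call rested on single libraries. Without siCON replicate 1 the log2 fold change was −0.45 (edgeR adjusted p = 0.119) and without siDGk replicate 1 it was −0.55 (edgeR adjusted p = 0.0668), in a range from 0.0188 to 0.119 over the alternatives.

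ASS1, which joins citrulline to aspartate and so brings in the other nitrogen of urea, lies on chromosome 9 (130444961 to 130501274, plus strand). Its level was 57.6, 65.6 and 70.2 CPM in siCON and 36.3, 33.5 and 48.1 CPM in siDGk libraries. The groups did not overlap, and siDGk replicate 3 was the nearest to siCON. The log2 fold change was −0.71 (SE 0.15, edgeR adjusted p = 0.00204).

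ASL, which splits argininosuccinate into arginine and fumarate, had 46.7, 47.6 and 41.5 CPM in siCON and 53.4, 59.1 and 52.8 CPM in siDGk libraries. The siDGk libraries were all above, but the difference was small and not called (log2 fold change 0.28, SE 0.13, edgeR adjusted p = 0.147). Of the exon length of ASL, 9.3% is shared with another gene on the same strand, which makes its count less certain. ARG1, the cytosolic arginase that releases urea, was scarce and variable at 1.44, 5.49 and 3.05 CPM in siCON and 2.27, 2.59 and 0.506 CPM in siDGk. Its groups overlapped, and its log2 fold change of −0.90 had an SE of 0.74 and ran from −1.26 to −0.32 over the alternatives. OTC, which makes citrulline, was not tested: it had 10, 0 and 2 counts in siCON and none in the 3 siDGk libraries. A count of 0 still allows 0.162, 0.185 and 0.138 CPM in siDGk replicates 1, 2 and 3, taking 3 counts as the floor. Such floors cover counting error only, and at this depth no difference in OTC was detectable.

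**Figure D2:**
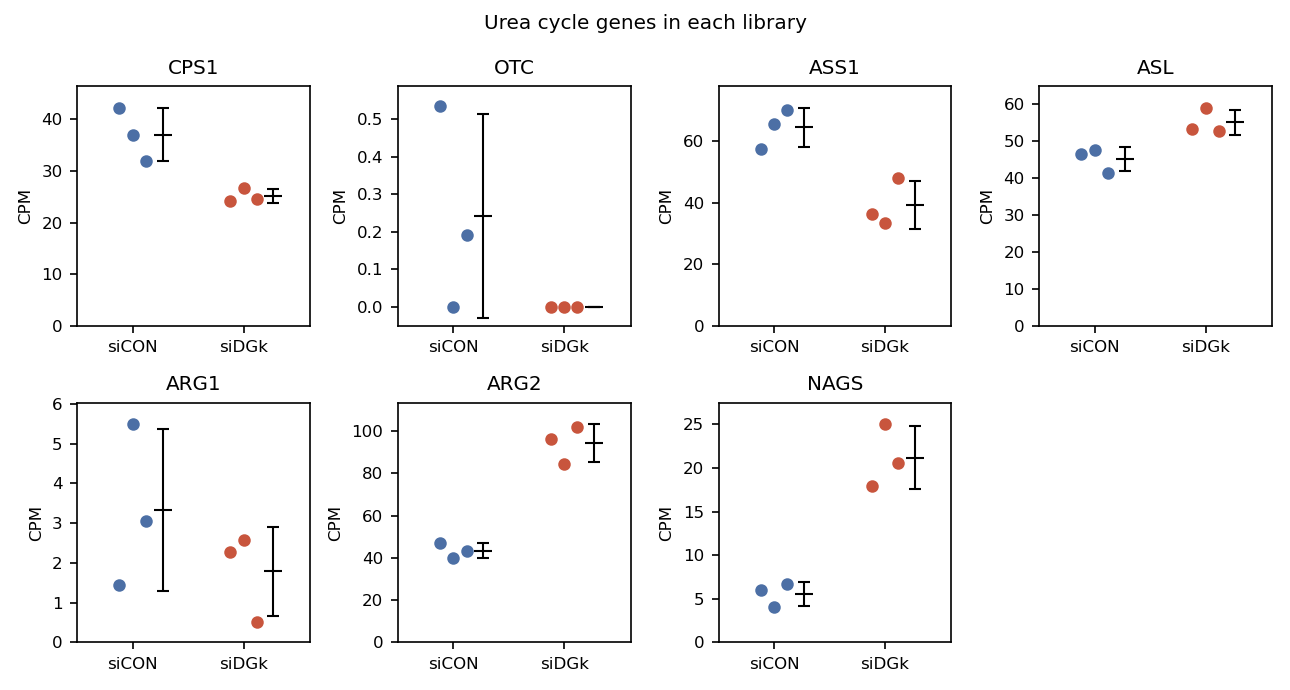
CPM (y axis, TMM-scaled) of the 7 urea cycle genes in each library (points) of siCON and siDGk (x axis), with mean and SD in black (n = 3); the y axes differ between panels. The siDGk points of NAGS and ARG2 lie above and those of CPS1 and ASS1 below all siCON points, while OTC has at most 0.534 CPM.

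All 3 histidine breakdown genes that were tested fell, where 6.68% of all genes tested were called lower. HAL, the histidase that removes the amino group of histidine, was at 25.5, 45.5 and 38.2 CPM in siCON and at 7.35, 6.83 and 7.91 CPM in siDGk libraries. The siDGk values were close to each other and far under the lowest siCON value. A log2 fold change of −2.30 (SE 0.23, edgeR adjusted p = 6.68e-07) made it the largest fall among the genes called, 4.93-fold. FTCD, which hands the formimino group to folate in the last step, was at 80.7, 108 and 73.3 CPM in siCON and at 34.6, 39.6 and 45.0 CPM in siDGk libraries. Groups were again separate, with a log2 fold change of −1.14 (SE 0.15, edgeR adjusted p = 1.96e-05). AMDHD1, the imidazolonepropionase between them, had 16.3, 17.2 and 15.4 CPM in siCON and 10.9, 6.96 and 9.25 CPM in siDGk. Its siDGk libraries were all lower, with a log2 fold change of −0.85 (SE 0.25, edgeR adjusted p = 0.0207). The AMDHD1 call was lost without siCON replicate 1, 2 or 3 (edgeR adjusted p = 0.0592, 0.0597 and 0.054) and without siDGk replicate 2 (edgeR adjusted p = 0.0845), with log2 fold changes of −0.85, −0.81, −0.89 and −0.70. Over all alternatives its adjusted p ran from 0.0119 to 0.0845. UROC1, the urocanase that acts after HAL, failed the filter with 6, 32 and 26 counts in siCON and 4, 0 and 0 in siDGk. Of the listed genes that failed the filter, DESeq2 gave an adjusted p to UROC1 alone and called it lower (DESeq2 adjusted p = 0.0245). Without a filter, edgeR did not call UROC1 (edgeR adjusted p = 0.17).

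HAL and AMDHD1 are neighbours on chromosome 12. AMDHD1 (95943331 to 95968720, plus strand) and HAL (95972662 to 95996365, minus strand) point towards each other with 3941 bases between them, and FTCD lies on chromosome 21 (46136160 to 46155579, minus strand). As these 3 genes were called in the same direction, the 250 bases before each RefSeq start are shown, 5′ to 3′ on the strand of the gene, with motif matches in capitals (chr12:95996345-95996594, minus, for HAL; chr12:95943081-95943330, plus, for AMDHD1; chr21:46155580-46155829, minus, for FTCD; GRCh38.p14).
HAL: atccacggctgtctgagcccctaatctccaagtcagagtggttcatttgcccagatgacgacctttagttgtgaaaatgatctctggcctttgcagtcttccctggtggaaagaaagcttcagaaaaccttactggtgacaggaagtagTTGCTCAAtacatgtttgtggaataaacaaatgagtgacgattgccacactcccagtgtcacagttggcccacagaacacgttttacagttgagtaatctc
AMDHD1: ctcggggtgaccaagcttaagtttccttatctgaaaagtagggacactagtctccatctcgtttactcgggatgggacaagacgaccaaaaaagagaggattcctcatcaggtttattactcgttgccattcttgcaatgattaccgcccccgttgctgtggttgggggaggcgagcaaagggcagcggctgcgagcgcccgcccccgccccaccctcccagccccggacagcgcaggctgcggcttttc
FTCD: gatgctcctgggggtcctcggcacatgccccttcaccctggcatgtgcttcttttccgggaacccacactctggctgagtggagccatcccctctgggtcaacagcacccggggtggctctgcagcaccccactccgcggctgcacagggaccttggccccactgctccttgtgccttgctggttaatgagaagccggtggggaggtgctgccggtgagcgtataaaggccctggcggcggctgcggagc
Both strands were searched for TGACGTCA, for the C/EBP motif TTGCNNAA, for the C/EBP-ATF motif TGATGNAA and for the HNF4 motif CAAAGTCCA. RefSeq windows were found for 37 of the 44 genes (46 windows) and for all 14 called genes (20 windows). TTGCNNAA was found in HAL, 101 bases before the start, and in SARDH on the other strand, 9 bases before the start, and also in KYNU and PCCA, which were not called. It occurs in 10.5% of all windows. TGATGNAA (3.62% of all windows) and CAAAGTCCA (0.384%) had no match in the windows of the called genes, and the latter was found in HAAO and AGXT2. No match of 1 motif overlapped a match of another in the called genes. The searched letters were therefore absent from these windows of AMDHD1 and FTCD.

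On the route from tryptophan through kynurenine to NAD, 2 of 4 genes tested fell. This was a share of 50%, beside 6.68% of all genes tested that were called lower. QPRT, which commits quinolinate to NAD synthesis, lies on chromosome 16 (29663279 to 29698699, plus strand). It gave 414, 412 and 419 CPM in siCON and 196, 204 and 193 CPM in siDGk libraries. Replicates agreed closely within each group. The log2 fold change of −1.07 (SE 0.07) had the smallest adjusted p among the 36 (edgeR adjusted p = 7.12e-09). AFMID, the formamidase that releases kynurenine, was at 104, 110 and 112 CPM in siCON and at 74.9, 68.9 and 66.6 CPM in siDGk. With no overlap of the groups, its log2 fold change was −0.63 (SE 0.10, edgeR adjusted p = 0.000189).

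KYNU, the kynureninase, and HAAO, which makes the precursor of quinolinate, were not called. KYNU was at 39.2, 18.5 and 35.8 CPM in siCON and 43.6, 46.7 and 45.9 CPM in siDGk, so that siCON replicate 2 stood apart (log2 fold change 0.55, SE 0.21, edgeR adjusted p = 0.0758). Without that library its log2 fold change was 0.27 (edgeR adjusted p = 0.269). It passed both thresholds without siCON replicate 1 (log2 fold change 0.76, edgeR adjusted p = 0.034), without the count filter (0.55, edgeR adjusted p = 0.00786) and with replicate number in the model (0.61, edgeR adjusted p = 0.0285). Over the alternatives its adjusted p ran from 0.00786 to 0.269. HAAO had a mean of 18.2 ± 4.22 CPM in siCON and 12.7 ± 0.757 CPM in siDGk (SD, n = 3), with all siDGk libraries lower and a log2 fold change of −0.52 (SE 0.23). The first enzyme, TDO2, had counts in siCON replicate 3 only (5 counts), and KMO had none in any library.

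Of the 4 tyrosine breakdown genes, HPD rose and the others were not called. The share called higher was 25%, beside 7.42% of all genes tested. HPD, the dioxygenase that makes homogentisate, lies on chromosome 12 (121839527 to 121863596, minus strand). Its values were 240.1, 265 and 259.9 CPM in siCON and 349.6, 346 and 403 CPM in siDGk libraries. They did not overlap, although the log2 fold change of 0.52 (SE 0.08, edgeR adjusted p = 0.000137) was close to the threshold. The fold change was under 0.5 without siCON replicate 1 (log2 fold change 0.48) and without siDGk replicate 3 (log2 fold change 0.44), each with an edgeR adjusted p of 0.00185 in a range from 5.26e-08 to 0.00348. FAH, which ends the pathway, had 24.7 ± 2.93 CPM in siCON and 33.1 ± 5.36 CPM in siDGk (SD, n = 3), all siDGk libraries being higher. HGD, the step after HPD, had 106 ± 14.8 and 90.6 ± 13.2 CPM, and TAT, the aminotransferase that opens the pathway, 8.63 ± 4.82 and 4.34 ± 1.38 CPM, both with overlapping groups.

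The alanine aminotransferases GPT and GPT2, which move nitrogen between alanine and glutamate, were not called. GPT2, the mitochondrial form, had 434.9 ± 13.6 CPM in siCON and 388 ± 34.8 CPM in siDGk (SD, n = 3); its log2 fold change was −0.17 (SE 0.08) and ran from −0.23 to −0.09 over the alternatives. GPT was scarce, at 5.60 ± 1.09 and 3.56 ± 1.67 CPM, with overlapping groups.

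PRODH2, a liver and kidney dehydrogenase of hydroxyproline, lies on chromosome 19 (35799988 to 35813299, minus strand) and fell. It was measured at 28.8, 51.3 and 27.5 CPM in siCON and at 10.9, 9.73 and 12.5 CPM in siDGk libraries. The siCON libraries varied more, replicate 2 being the highest, and yet none reached down to the siDGk values. The log2 fold change was −1.70 (SE 0.24, edgeR adjusted p = 3.62e-05). OAT, which links ornithine to glutamate and proline, had 101 ± 9.97 CPM in siCON and 81.0 ± 13.4 CPM in siDGk (SD, n = 3), with overlapping groups and a log2 fold change of −0.32 (SE 0.12). PRODH, the proline dehydrogenase, had 9 counts in siDGk replicate 2 and none elsewhere.

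Among the genes of serine, glycine and glyoxylate, AGXT and SARDH fell, and 4 others tested were not called. The share called lower was 33.3%, beside 6.68% of all genes tested. AGXT, the peroxisomal enzyme that turns glyoxylate into glycine and whose loss causes primary hyperoxaluria, lies on chromosome 2 (240868824 to 240880502, plus strand). It gave 42.2, 65.4 and 52.8 CPM in siCON and 12.4, 20.1 and 9.89 CPM in siDGk libraries. Each siDGk value was under 21 CPM and each siCON value above 42 CPM, and the log2 fold change was −1.93 (SE 0.23, edgeR adjusted p = 6.81e-06). SARDH, the mitochondrial sarcosine dehydrogenase, lies on chromosome 9 (133663560 to 133739955, minus strand). Its level was 55.7, 48.8 and 48.1 CPM in siCON and 17.0, 20.6 and 22.6 CPM in siDGk libraries. Both groups were tight and separate, with a log2 fold change of −1.34 (SE 0.16, edgeR adjusted p = 7.26e-06).

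GLDC, which takes carbon dioxide off glycine in the glycine cleavage system, was at 76.9, 83.4 and 77.3 CPM in siCON and at 52.8, 57.4 and 62.8 CPM in siDGk libraries. All siDGk libraries were lower, and the log2 fold change of −0.46 (SE 0.12, edgeR adjusted p = 0.00806) passed the adjusted p alone. It passed both thresholds without siDGk replicate 3, at a log2 fold change of −0.53. GCSH, which carries the glycine-derived group in the same system, had 1.23, 2.50 and 0.953 CPM in siCON and 3.89, 4.19 and 6.03 CPM in siDGk. These few counts were all higher in siDGk, with a log2 fold change of 1.57 that was not called (SE 0.58, edgeR adjusted p = 0.0686). Without siCON replicate 2 it was called, at a log2 fold change of 2.09 (edgeR adjusted p = 0.0336, in a range from 0.0336 to 0.213 over the alternatives), and the smallest was 0.71, with shrunken fold changes in DESeq2. Of its exon length, 12.1% is shared with other genes, which makes the count less certain. SDSL (7.52 ± 3.30 and 6.15 ± 0.110 CPM, SD, n = 3) and DMGDH (3.10 ± 1.32 and 2.81 ± 0.665 CPM) had overlapping groups. SDS had 4 counts in siDGk replicate 1, AGXT2 had 6 in siCON replicate 2, and AMT had 1 in siDGk replicate 1. AMT shares 62.6% of its exon length with an overlapping gene on the same strand, which makes its count uncertain.

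For the breakdown of leucine, isoleucine, valine and propionyl-CoA, 9 genes were tested, and DBT was called. This was a share of 11.1%, beside 14.1% of all genes tested. DBT, the core subunit of the branched-chain ketoacid dehydrogenase complex, lies on chromosome 1 (100186919 to 100249834, minus strand). It was at 28.2, 21.2 and 27.4 CPM in siCON and 14.3, 16.7 and 14.3 CPM in siDGk libraries. The groups were apart, with a log2 fold change of −0.76 (SE 0.20, edgeR adjusted p = 0.0102). Without siCON replicate 1 or 3 the call was lost (log2 fold changes −0.68 and −0.71, edgeR adjusted p = 0.0545 and 0.0547, in a range from 0.00651 to 0.0547). PCCB, a subunit of propionyl-CoA carboxylase, passed the adjusted p alone. It had 83.9, 70.2 and 84.8 CPM in siCON and 59.9, 54.9 and 62.9 CPM in siDGk libraries. All siDGk libraries were lower, at a log2 fold change of −0.42 (SE 0.12, edgeR adjusted p = 0.0159), and its adjusted p ran from 0.0057 to 0.0853 over the alternatives. Without siCON replicate 2 it passed both thresholds (log2 fold change −0.51), and without siCON replicate 1 or 3 or siDGk replicate 2 it did not pass the adjusted p. STAG1, on the opposite strand, shares 22.2% of the exon length of PCCB.

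The other 7 had log2 fold changes below 0 that were not called. PCCA, the partner of PCCB, had 33.2 ± 7.30 CPM in siCON and 24.5 ± 3.23 CPM in siDGk (SD, n = 3) without overlap. The leucine enzymes IVD (75.6 ± 9.74 and 62.7 ± 10.5 CPM), MCCC1 (16.8 ± 0.993 and 14.2 ± 4.81 CPM) and MCCC2 (59.2 ± 5.59 and 47.1 ± 5.55 CPM) overlapped between groups. BCKDHB (9.62 ± 2.93 and 9.26 ± 5.36 CPM), BCKDHA (2.08 ± 0.600 and 1.22 ± 0.219 CPM) and BCAT2 (2.49 ± 2.25 and 1.32 ± 0.990 CPM) were scarce, with SEs of the log2 fold change of 0.38, 0.88 and 0.91. Values this uncertain say little about direction, and those of BCAT2, BCKDHB and DMGDH turned positive under some alternatives. BCKDHA shares 73.7% of its exon length with an overlapping gene on the same strand, which makes its count uncertain.

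**Figure D3:**
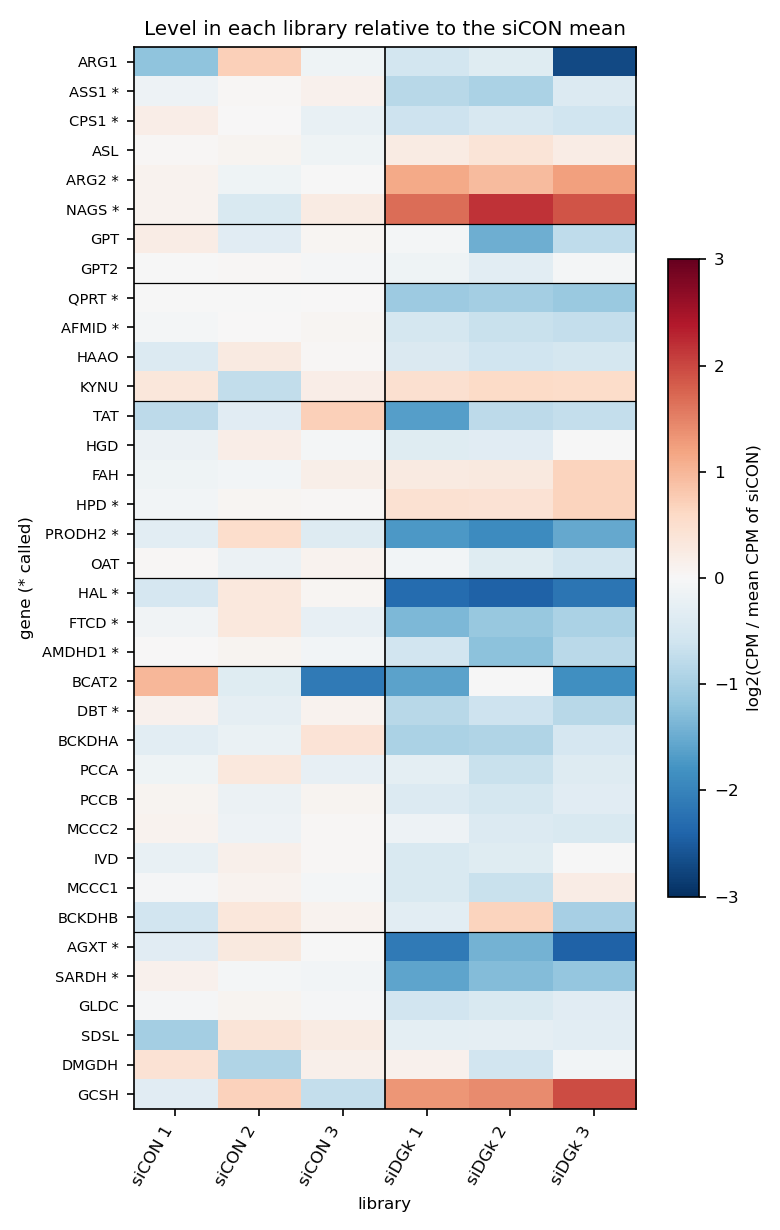
Level of each tested gene (y axis, by role; asterisks mark calls) in each library (x axis), as log2 of CPM over the siCON mean. The siDGk columns are blue for HAL, AGXT, PRODH2, SARDH, FTCD and QPRT in all 3 libraries and red for NAGS and ARG2, and scarce genes such as ARG1 and BCAT2 vary within groups.

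Summed over the 44 genes, the level was 2315, 2462 and 2381 CPM in siCON and 1914, 1857 and 2040 CPM in siDGk libraries. The sum was lower in all 3 siDGk libraries, by 449 CPM between the means (2386 ± 74.1 and 1937 ± 93.5 CPM, SD, n = 3). A few abundant transcripts set it. GPT2 and QPRT made up 18.2% and 17.4% of the siCON sum, and HPD 10.7%. QPRT alone had a difference of −217 CPM, and HPD one of 111 CPM in the other direction. Per exon length, HPD (418 ± 24.5 TPM), QPRT (411 ± 8.83 TPM) and GPT2 (249 ± 5.81 TPM) were the most abundant of the 44 in siCON cells, HPD and QPRT within their spread. Read for each library as the median over the 36 genes, the log2 level relative to the siCON mean was −0.06, 0.05 and 0.05 in siCON and −0.40, −0.46 and −0.44 in siDGk.

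Lists of further pathway genes, also chosen with earlier results of these data known, were counted in the same way. Of 21 tested genes that bring nitrogen in or exchange ornithine, glutamate and proline, 3 fell and none rose. These were GLUD1, the mitochondrial glutamate dehydrogenase, from 498 ± 6.33 to 280.2 ± 26.2 CPM (SD, n = 3; log2 fold change −0.83, SE 0.08), GAMT of creatine synthesis, from 76.2 ± 1.70 to 34.2 ± 6.77 CPM (log2 fold change −1.16, SE 0.15), and ALDH18A1 of proline and ornithine synthesis (log2 fold change −0.59, SE 0.09). Their edgeR adjusted p-values were 5.09e-07, 1.15e-05 and 0.000137. The list's share of falls was 14.3%, beside 6.68% of all genes, and its median log2 fold change was −0.11. GLUL, GOT1 and GOT2, which handle glutamine, glutamate and aspartate, were not called, at log2 fold changes of −0.32, 0.21 and 0.00. GLUL was past the adjusted p alone (edgeR adjusted p = 0.00439). So was ODC1, in the higher direction (log2 fold change 0.40, edgeR adjusted p = 0.00239).

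Of 46 tested genes of other amino acid breakdown, 9 fell and none rose, a share of 19.6% beside falls in 6.68% of all genes, with a median log2 fold change of −0.18. ACADSB and ALDH6A1, of isoleucine and valine breakdown, had log2 fold changes of −1.55 (SE 0.13) and −1.30 (SE 0.21). MUT, the methylmalonyl-CoA mutase, had −0.79 (SE 0.14), and MMAB, which makes its cobalamin cofactor, had −1.13 (SE 0.15). AUH, a hydratase of leucine breakdown, had a log2 fold change of −0.83 (SE 0.20), and ECHS1, a hydratase shared with fatty acid oxidation, had −0.54 (SE 0.10). GRHPR, which like AGXT removes glyoxylate, had −0.57 (SE 0.11), and its fold change was −0.48 and no longer called without siCON replicate 3.

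Transcription factors known to act on these genes in liver, listed together with the coactivator PPARGC1A, were counted as well. This list too was chosen with earlier results of these data known. Of 18 tested, 7 fell (38.9%, beside 6.68% of all genes) while none rose. CEBPA, which drives many of these enzymes in hepatocytes, was at 116, 119 and 129 CPM in siCON and 62.5, 49.0 and 55.8 CPM in siDGk libraries. Its groups were far apart, with a log2 fold change of −1.12 (SE 0.11, edgeR adjusted p = 9.23e-07). HNF4A, a nuclear receptor central to hepatocyte identity, had 260.3, 231 and 246 CPM in siCON and 177, 179 and 162 CPM in siDGk. This difference was smaller, at a log2 fold change of −0.51 (SE 0.08, edgeR adjusted p = 0.000207), and was under the fold change threshold without siCON replicate 1 (log2 fold change −0.47) and without siDGk replicate 3 (log2 fold change −0.47). The bile acid receptor NR1H4 and the factors FOXA1 and ONECUT1 had log2 fold changes of −1.69 (SE 0.24), −0.91 (SE 0.16) and −1.94 (SE 0.43), and that of ONECUT1 ran from −2.45 to −1.10 over the alternatives. KLF15, known as a driver of amino acid breakdown in fasting, had a log2 fold change of −1.45 (SE 0.40, from −1.55 to −0.91 over the alternatives) at a siCON mean of 7.45 CPM, and lost its call without siCON replicate 3 (edgeR adjusted p = 0.0689, in a range from 0.00699 to 0.0689). CREB3L3 had 10.2, 6.82 and 10.7 CPM in siCON and 1.78, 1.23 and 0 CPM in siDGk. These low counts gave a log2 fold change of −3.21 (SE 0.72, edgeR adjusted p = 0.00347) that DESeq2 did not call (adjusted p = 0.0994), and its shrunken log2 fold change in DESeq2 was only −0.35. Over the alternatives the adjusted p ran from 1.53e-08 to 0.0994. ATF4, the factor of the amino acid response, was at 468 ± 24.0 and 599.8 ± 22.6 CPM (SD, n = 3), past the adjusted p alone (log2 fold change 0.36, edgeR adjusted p = 0.00154). NR3C1 and CEBPB, the glucocorticoid receptor and a relative of CEBPA, were not called. These are transcript levels, and protein and activity of the factors were not measured here. The part of these factors in the changes of the enzymes was not tested.

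**Figure D4:**
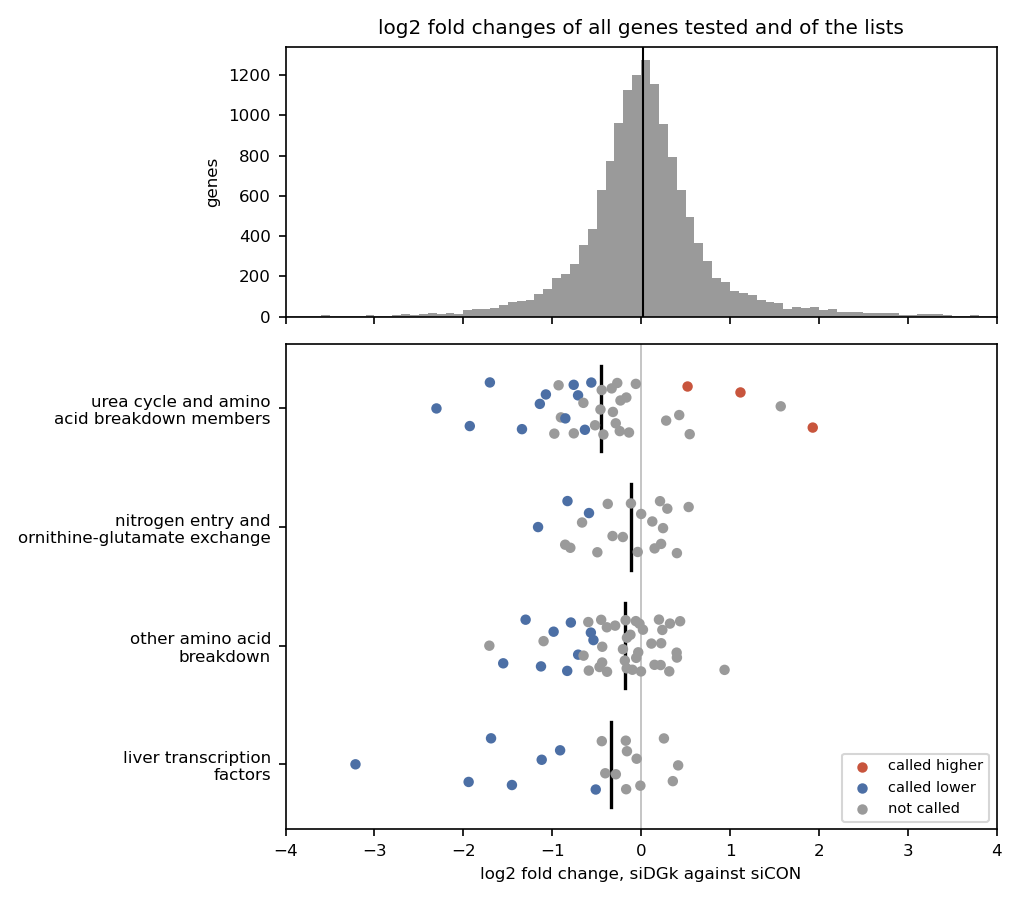
Upper panel, number of genes (y axis) by log2 fold change (x axis, siDGk against siCON) among all genes tested, drawn between −4 and 4; lower panel, the same x axis for the genes of each list, 1 point a gene, with black bars at medians. Medians were −0.45 for the 36 urea cycle and amino acid breakdown genes, −0.11 for nitrogen entry, −0.18 for other breakdown and −0.34 for transcription factors.

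Markers of cell types were read beside these changes. Of 11 hepatocyte transcripts, none of them in the lists above, all 11 were tested and 9 were called, each lower in siDGk, where 6.68% of all genes were called lower. Their sum was 63060, 59130 and 56670 CPM in siCON and 35690, 31860 and 30490 CPM in siDGk libraries, and none was at 0 in any library. SERPINA1 and APOA2 were not called, with log2 fold changes of 0.02 and −0.23. Transcripts this abundant could hardly be at 0, so their presence does not test the hepatocyte label of the line. The part of these transcripts in the 11 falls described above was not tested, and in bulk RNA fewer cells of a type and less RNA per cell cannot be told apart.

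The 6 fibroblast and stellate transcripts summed to 12.1, 15.0 and 10.3 CPM in siCON and 42.4, 56.1 and 21.6 CPM in siDGk libraries. Among the 3 tested, COL1A1 rose from a mean of 1.17 to 19.4 CPM and PDGFRB fell from 11.1 to 5.49 CPM, and DCN and LUM were at 0 in all siCON libraries. The siDGk libraries differed among themselves: COL1A2 was at 6.70, 10.4 and 0 CPM, COL3A1 at 15.6 CPM in replicate 2 and 0.414 CPM in replicate 3, and DCN and LUM were found in siDGk replicates 1 and 2 but not 3. Endothelial transcripts summed to 1.66, 1.39 and 2.29 CPM in siCON and 4.49, 59.3 and 4.05 CPM in siDGk libraries, so that siDGk replicate 2 stood apart, with VWF at 31.4 and PECAM1 at 15.9 CPM. Leukocyte transcripts summed to 1613, 1701 and 1703 CPM and to 1902, 1758 and 1768 CPM, almost all of it LYZ, and none was called. KDR and TEK were at 0 in all siCON libraries, and CSF1R in all siDGk libraries. Without siDGk replicate 2, 13 genes of the 36 were called, AMDHD1 being the call lost. Without siDGk replicate 1 the number was also 13, CPS1 being the call lost. No fit left out both of these libraries. The part of these transcripts in the other results was not tested.

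**Figure D5:**
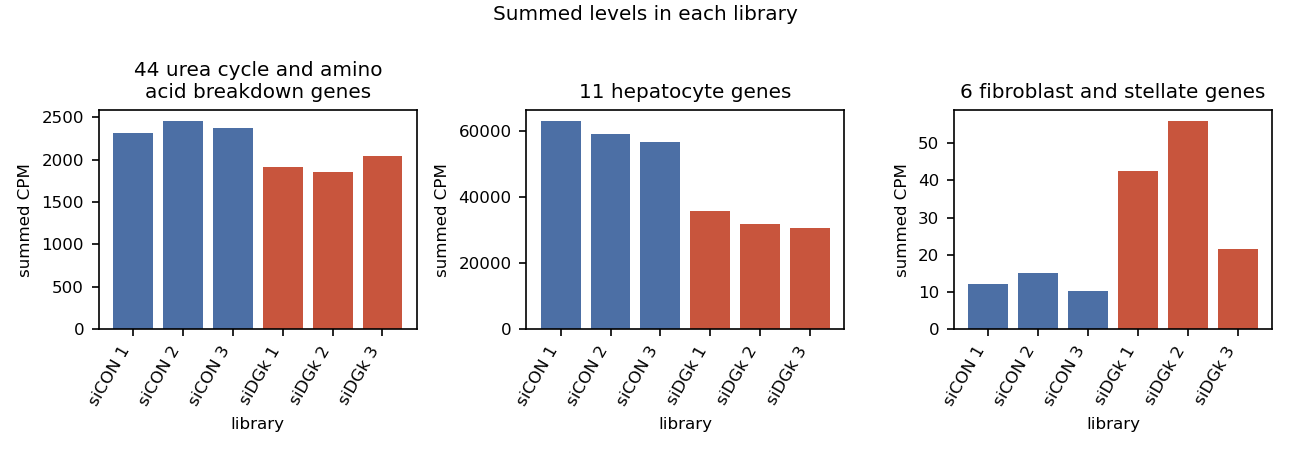
Summed CPM (y axis, from 0) in each library (x axis) of the 44 urea cycle and amino acid breakdown genes, of 11 hepatocyte transcripts and of 6 fibroblast and stellate transcripts. The siDGk bars are lower in the first and second panel, from 1857 to 2040 CPM and from 30490 to 35690 CPM, and higher in the last, from 21.6 to 56.1 CPM.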

How the data were processed

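Whole gene counts deposited by the authors were analysed, from RNA of 6 HepG2 cultures. Whether poly(A) selection or rRNA depletion was used is unresolved in the labels. Before alignment the authors set aside reads matching tRNA or rRNA, spike-ins or adapters. STAR 2.6.1 placed the rest on GRCh38, alignments of low complexity were dropped, and the remainder was counted per Gencode gene in featureCounts 1.6.5, ignoring strand and leaving out reads on several places or genes. The submitters' processing notes also name Bowtie 1.1.2. Genes that overlap or resemble others therefore have uncertain counts.

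In R 4.3.3, counts were filtered (filterByExpr, minimum count 10), scaled by TMM on full library totals, and compared with edgeR 4.0.16 (robust quasi-likelihood, condition only, two-sided). P-values were adjusted by Benjamini-Hochberg over all genes tested, and calls needed a log2 fold change beyond 0.5 in either direction with an adjusted p below 0.05. The SE is the log2 fold change over the root of F. Library totals from 10527216 to 21334876 set the precision. Library totals were first summed over the genes tested alone; this was changed once results had been seen, to match earlier processing of these data, and the earlier choice is kept as an alternative. TPM and exon overlaps used Gencode 44 (merged exons), a later release than the authors counted with, which matched 98.8% of genes by identifier. Replicates of a group differed by more than sampling noise (pairwise chi-square over degrees of freedom, 10.8 to 24.8). Promoter windows came from RefSeq (GRCh38.p14) and figures from matplotlib 3.10.9.

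The members and lists were chosen with earlier results of these data known. Among the 44, values are given in every library for tested urea cycle genes, called genes, genes past the adjusted p alone and a few others, as group means for the rest of the genes tested, and as counts for genes that failed the filter; of the further lists, only some called genes are named. IDO2 and MS4A1 were not analysed here. Other fits used DESeq2 1.42.0, plain or shrunken, other normalizations and filters, replicate number as a block, other thresholds and each library left out. The scripts were tested on simulated data, where changes in genes of low and of moderate count were often missed, so a gene that was not called may still have changed.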

Additional observations from a re-analysis of the deposited data

How the results depend on the processing

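Over 15 refits (other normalizations, filters, DESeq2, a replicate block, each library left out), no called gene among the 36 changed direction, and 11 to 15 of the 36 were called in each. NAGS, ARG2, ASS1, QPRT, AFMID, HAL, FTCD, AGXT, SARDH and PRODH2 were called in all of these. CPS1, AMDHD1, DBT and HPD lost their call in some fits without 1 library, and CPS1 and DBT were not tested at a mean TPM above 10. The number of transcription factors called was 4 at a mean TPM above 10, where fewer genes were tested. The median log2 fold change of the 36 was −0.32 with DESeq2's shrunken fold changes and ran from −0.50 to −0.41 without 1 library; the cause was not tested. At the adjusted p alone, 5 nitrogen entry genes and 17 genes of other amino acid breakdown passed, some of them higher in siDGk, beside 19.7% of all genes. With a log2 fold change above 1, calls numbered 819 over all genes and 8 of the 36 (6 lower), 1 nitrogen entry gene and 3 genes of other breakdown, by construction of the threshold. Library sizes summed over the genes tested gave 2032 calls beside 2041. Replicate numbers did not pair the libraries (correlations of deviations across genes 0.024, 0.017 and −0.0022), and with the replicate block 2077 genes and 15 of the 36 were called, KYNU being added. No setting moved the median of all genes by more than 0.02. Depth limits the scarce genes: the floor of 3 counts was 0.138 to 0.286 CPM a library.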
